A study of Mus musculus with 144 samples.

Results

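The 10 genes followed here encode Xbp1 and 9 proteins of the folding and degradation machinery of the endoplasmic reticulum (Hspa5, Hsp90b1, Calr, Pdia4, Sdf2l1, Creld2, Dnajb9, Dnajc3 and Herpud1). They were taken by symbol from the deposited gene count table, which holds 51912 genes, and 10 of 10 had enough counts to be tested in every comparison of gene levels. The counts come from mouse liver libraries of 3′ mRNA sequencing (QuantSeq, which counts tags next to the poly(A) tail), made for a study of polyadenylation over the day. The libraries form 4 series of 36: total, nuclear and polysomal RNA from wild-type animals, and total RNA from animals labelled Bmal1-/-, which lack a transcription factor that drives the circadian clock. Each series holds 6 libraries at each of the zeitgeber times ZT2, ZT6, ZT10, ZT14, ZT18 and ZT22, where ZT counts hours from lights on. All mice were male and of strain C57BL/6J, lived in 12 h of light and 12 h of dark, and had food and water at all times. The labels give no age, do not say which part of the Bmal1 gene is missing, name no tissue restriction of the deletion, and do not say whether libraries with the same number come from one animal. The p-values below therefore measure the spread between libraries, which may in part be technical.

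Proteins that enter the secretory pathway fold in the endoplasmic reticulum, and hepatocytes, which secrete most plasma proteins, carry a large load of them. When unfolded protein builds up, the sensors Ern1 (IRE1), Eif2ak3 (PERK) and Atf6 start the unfolded protein response. Ern1 splices the Xbp1 mRNA into the form that encodes an active transcription factor, and XBP1 and cleaved ATF6 then raise the transcription of chaperones, of folding enzymes and of the machinery that returns misfolded proteins to the cytosol for degradation. Counts of transcript ends hold no measure of Xbp1 splicing, so the values given for Xbp1 are those of its spliced and unspliced mRNA together.

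The promoters of these genes are known for the ER stress response element (ERSE), which NF-Y binds at one end and ATF6 or XBP1 at the other. In RefSeq promoter windows of GRCm38.p6, from 250 bases before to 50 after the gene start, 10 of 10 members were found. The ERSE, spelled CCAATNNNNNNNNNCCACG and searched on both strands, was in 39 of 32851 windows (0.119%) and in those of 5 members: Hspa5, Creld2, Hsp90b1 (2 copies), Calr and Dnajc3. The shorter ERSE-II, spelled ATTGGNCCACG, was in 12 windows (0.0365%), among them that of Herpud1. Without the last base of the ERSE (CCAATNNNNNNNNNCCAC, which every ERSE match also holds), 120 windows (0.365%) matched, and Herpud1 and Pdia4 joined the 5 members. The E-box CACGTG, the kind of site that BMAL1 with its partner CLOCK binds, was in 7.15% of windows and in those of Dnajb9 and Calr. TGACGTG, a core that XBP1 and ATF6 can bind, was in 2.01% of windows and in that of Hspa5. These are matches of letters and not measured binding. The 6 stretches that hold an ERSE or ERSE-II are shown because they carry the element through which the stress response is known to act on these genes. Each is on the strand of its gene, 5′ to 3′, with the element in capitals (in Creld2, Calr and the second copy in Hsp90b1 the element reads on the other strand). The Hspa5 stretch is chr2:34771890-34772058 (plus strand), Herpud1 chr8:94386362-94386402 (plus), Creld2 chr15:88819505-88819553 (plus), Hsp90b1 chr10:86705518-86705671 (minus), Calr chr8:84847060-84847108 (minus) and Dnajc3 chr14:118937812-118937860 (plus).
Hspa5: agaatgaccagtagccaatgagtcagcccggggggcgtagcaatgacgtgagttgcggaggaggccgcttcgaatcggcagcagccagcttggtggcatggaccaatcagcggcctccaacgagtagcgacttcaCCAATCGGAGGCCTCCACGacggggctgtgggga
Hsp90b1: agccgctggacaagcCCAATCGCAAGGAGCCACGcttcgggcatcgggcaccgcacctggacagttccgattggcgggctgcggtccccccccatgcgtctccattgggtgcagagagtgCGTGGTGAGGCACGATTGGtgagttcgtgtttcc
Calr: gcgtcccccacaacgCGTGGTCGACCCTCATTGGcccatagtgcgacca
Dnajc3: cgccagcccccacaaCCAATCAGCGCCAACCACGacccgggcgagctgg
Creld2: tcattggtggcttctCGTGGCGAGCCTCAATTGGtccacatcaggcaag
Herpud1: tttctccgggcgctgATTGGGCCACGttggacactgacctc

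Levels are given as CPM, a gene's counts in each 1000000 gene counts of a library, and differences as log2 changes from edgeR's quasi-likelihood F test with Benjamini-Hochberg adjustment over all genes tested. Totals per library ran from 1662449 to 14281894 gene counts (median 6431391), with the nuclear libraries the lowest at 1662449 to 6620128. Hepatocyte markers summed to 33214 to 91721 CPM in wild-type and 31215 to 121078 CPM in Bmal1-/- total RNA, with 5 of 5 genes above 0 in each series. The 5 cholangiocyte markers summed to 16.2 to 66.6 and 45.8 to 136 CPM, and the 6 Kupffer cell markers to 114 to 761 and 84.0 to 425 CPM, in the same order; Sox9 and Spp1, the 2 cholangiocyte markers tested, were higher in Bmal1-/- libraries and 5 of 6 Kupffer cell markers lower. The 6 pancreatic acinar markers summed to 15.01 to 94.8 and 16.6 to 186 CPM, against 8.54 to 2399 CPM in polysomal RNA. The Arntl (Bmal1) row does not check the genotype, because the deleted part is not given and a 3′ tag may lie outside it: it held 5.17 to 18.6 CPM in the Bmal1-/- libraries and 0.251 to 19.3 CPM in wild-type total RNA. In 4 libraries, 1 in each series and all at ZT22, Xist was above 100 CPM (165 to 4363, against at most 5.67 in the other 140), which goes against the label male. Hspa5 was the highest of its 6 libraries in each of the 4. In polysomal RNA, replicate 3 at ZT2 and at ZT10 held the pancreatic gene Ctrb1 at 372 and 158 CPM (at most 20.4 elsewhere), and lung markers reached 915 CPM in the libraries numbered 1 against at most 0.301 CPM in the other series. Results that move without these libraries are given both ways. In liver homogenate, fewer cells of a type and less RNA per cell cannot be told apart.

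In wild-type total RNA, 7 of the 10 genes followed a 24 h rhythm (edgeR, cosine and sine of 24 h), against 18.9% of the 11964 genes tested. The 10 genes were chosen with earlier results of these data known, so this contrast is a description. The fitted peak-to-trough ratio had a median of 1.61 over the 10 genes and of 1.25 over all genes. Hspa5, Creld2, Hsp90b1, Dnajc3, Sdf2l1 and Calr were lowest on average at ZT10 late in the light phase and reached their fitted peaks in the dark, between ZT18.8 and ZT23.1. Herpud1 peaked about the change from light to dark, at ZT13.4.

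Among the chaperones, Hspa5 (BiP), the Hsp70 protein of the reticulum that also holds the sensors inactive, had a lowest, median and highest level of 564, 856 and 911 CPM at ZT10. At ZT14 these values were 1309, 1546 and 1961 CPM, and at ZT18 997, 1654 and 2127 CPM. Every ZT14 and ZT18 library was above every ZT10 library. The fitted ratio was 2.15 with the peak at ZT19.1 (adjusted p 3.67e-05). Hsp90b1, the Hsp90 protein of the reticulum, ran from 407 to 582 (median 527) CPM at ZT10 to 538 to 922 (median 647) CPM at ZT18. These 2 times overlapped, and the ratio was 1.42 with the peak at ZT18.8 (adjusted p 0.0317). Calr (calreticulin), a lectin chaperone of glycoproteins that also buffers calcium, was at 323, 389 and 472 CPM at ZT10 and at 551, 619 and 742 CPM at ZT22. The groups did not overlap, and the ratio was 1.55 with the peak at ZT23.1 (adjusted p 0.000174). Pdia4, a protein disulfide isomerase, was spread widely at each time, with 31.3 to 76.7 (median 43.7) CPM at ZT10 and 47.3 to 126 (median 84.6) CPM at ZT22, and its ratio of 1.46 with the peak at ZT22.7 (adjusted p 0.27) did not pass.

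Of the partners of Hspa5, Dnajc3, a J-domain protein that also restrains PERK, had 244, 248 and 294 CPM at ZT10 and 279.6, 374 and 419 CPM at ZT18. The 2 times overlapped at their edges, and the ratio was 1.43 with the peak at ZT20.1 (adjusted p 0.00583). Sdf2l1, found in chaperone complexes with J-domain proteins, had 5.37, 10.8 and 17.5 CPM at ZT10 and 10.97, 31.9 and 46.4 CPM at ZT22. Its ratio was 2.45 with the peak at ZT22.1 (adjusted p 0.00337), although the 2 times overlapped. Creld2, a protein of the reticulum induced by its stress, had the widest range: 3.27, 8.38 and 10.8 CPM at ZT10 against 14.1, 36.95 and 63.4 CPM at ZT18, with no overlap and a ratio of 3.72 with the peak at ZT18.8 (adjusted p 0.00057). Dnajb9, a J-domain protein that brings Hspa5 to Ern1, did not pass as a 24 h cosine, with a ratio of 1.67 with the peak at ZT17.8 (adjusted p 0.172). Its lowest and highest times were ZT6, at 13.1, 15.9 and 18.7 CPM, and ZT14, at 33.2, 43.3 and 64.3 CPM, which did not overlap. Any difference among the 6 times did pass for Dnajb9, with a highest-to-lowest ratio of 2.87 (edgeR adjusted p 0.0042).

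Herpud1, a membrane protein that recruits the degradation complex, had 61.1, 148 and 193 CPM at ZT2, 278, 332 and 356 CPM at ZT10 and 150.0, 359 and 445 CPM at ZT14. All ZT10 libraries were above all those at ZT2, ZT6 and ZT22, and the ratio was 2.62 with the peak at ZT13.4 (adjusted p 6.66e-06). Herpud1 at ZT10 was thus near its highest while Hspa5, Creld2, Sdf2l1, Calr, Hsp90b1 and Dnajc3 were at their lowest means. Xbp1 itself, the transcription factor, had a ratio of 1.03 with the peak at ZT4.9 (adjusted p 0.983), and its time-point means ran from 74.1 CPM at ZT22 to 103 CPM at ZT2, with overlap throughout.

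**Figure D1:**
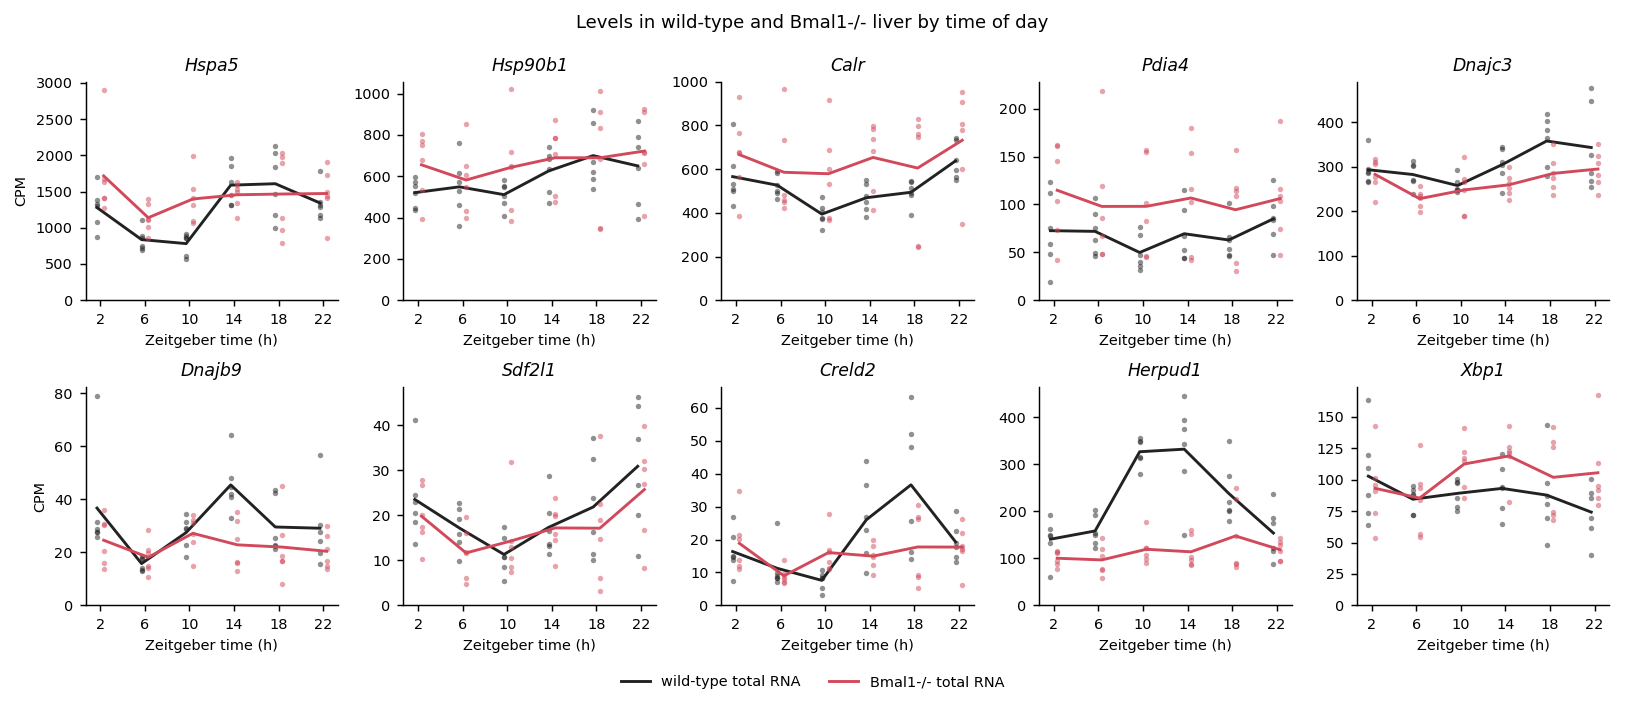
Levels of the 10 genes in CPM (y axis, one scale for each panel) against zeitgeber time in h (x axis) for wild-type and Bmal1-/- total RNA. Points are single libraries (6 at each time) and lines join the means: in wild-type libraries Hspa5, Creld2 and Calr dip at ZT10 and Herpud1 is high at ZT10 and ZT14, while in Bmal1-/- libraries Herpud1 lies lower and flatter.

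The test of any difference between the 6 times, which assumes no shape of the curve, called 6 of the 10 genes in wild-type total RNA (edgeR, 11.8% of all genes): Hspa5, Herpud1, Creld2, Calr, Dnajb9 and, at an adjusted p of 0.0434, Sdf2l1. Without the Xist library it called 5 (10.9% of all genes), as Sdf2l1 was lost (adjusted p 0.0766). XBP1 targets in liver are known for components of 12 h as well. A 12 h term added to the 24 h cosine passed for 0 of the 10 genes (edgeR, 0.0502% of all genes), with 3 at an unadjusted p under 0.05: Dnajb9 (ratio 2.04, p 0.000236, adjusted p 0.13), Hspa5 (ratio 1.47, p 0.0019, adjusted p 0.399) and Creld2 (ratio 2.05, p 0.0125, adjusted p 0.849). Sampling at 6 times of 1 day cannot separate a 12 h rhythm from a 24 h curve that is no cosine. The 12 h term also passed for 0 of the 10 genes in Bmal1-/- total, nuclear and polysomal RNA (edgeR, 0.0% of all genes in each), where 0, 1 and 1 were at an unadjusted p under 0.05. DESeq2 was not run for these tests.

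Across the 36 wild-type total RNA libraries, the log2 levels of the 45 pairs of members had Pearson correlations from -0.43 (Herpud1 with Calr) to 0.93 (Hspa5 with Creld2), with a median of 0.27 and 35 pairs above 0. These points share libraries, times of day and normalisation, and are a description. Among 7963 other genes, the 5 most like the mean of the standardised members over the same libraries were Manf (r 0.89), an ER stress-induced factor of the reticulum, Ahsa1 (0.80), a co-chaperone of Hsp90, Slc17a3 (0.79), a membrane transporter, Atp2a2 (0.79), the calcium pump of the reticulum, and Dnajb11 (0.77), a J-domain partner of Hspa5.

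Over the whole day, Bmal1-/- total RNA differed from wild-type total RNA for 4 of the 10 genes (edgeR, 44.2% of the 12082 genes tested): Herpud1, Dnajb9 and Dnajc3 were lower (22.4% of all genes were) and Pdia4 was higher (21.7%). A share of 4 in 10 is near that of all genes. The median log2 change was -0.11 over the 10 genes and -0.00075 over all genes. In the same libraries 2 of 2 tested cholangiocyte markers, 1 of 1 pancreatic acinar marker and 3 of 5 stellate cell markers were higher (1 of 5 lower), and 5 of 6 Kupffer cell and 2 of 2 plasma and B cell markers were lower. Of the 5 sinusoidal endothelial markers 1 was higher and 1 lower, and of the 5 hepatocyte markers 2 were higher and 1 lower. Plasma and B cell markers summed to 3.52 to 147 CPM in wild-type and 2.92 to 46.6 CPM in Bmal1-/- libraries, and stellate cell markers to 217 to 378 and 310.1 to 513 CPM. The part of these cells in the differences was not tested.

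Herpud1 was the member with the largest change. At ZT10 its lowest, median and highest levels were 278, 332 and 356 CPM in wild-type and 90.97, 114 and 178 CPM in Bmal1-/- libraries, with no overlap. At ZT14 they were 150.0, 359 and 445 and 85.2, 99.8 and 159.8 CPM, where the groups met at their edges. Its Bmal1-/- mean was lower at 6 of 6 times, with a log2 change over the day of -0.98 (SE 0.10, adjusted p 9.73e-13). Dnajb9 was at 33.2, 43.3 and 64.3 CPM in wild-type and 12.8, 20.7 and 35.2 CPM in Bmal1-/- libraries at ZT14, which overlapped slightly. It was lower at 5 of 6 times, with a change of -0.48 (SE 0.12, adjusted p 0.000918) over the day. Dnajc3 was lower at 6 of 6 times, with a change of -0.30 (SE 0.06, adjusted p 1.03e-05), and at ZT18 ran from 279.6 to 419 (median 374) CPM in wild-type to 235 to 350.1 (median 280.3) CPM in Bmal1-/- libraries. Pdia4 was higher at 6 of 6 times, with 68.6 ± 27.4 CPM (SD, n = 36) in wild-type and 103 ± 49.8 CPM in Bmal1-/- libraries. Its log2 change was 0.51 (SE 0.16, adjusted p 0.00938). The Pdia4 gene counts join tags of a site beside the gene start with those of sites nearer the gene end.

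The other 6 genes did not pass over the day. The log2 changes were 0.22 (SE 0.10, adjusted p 0.0548) for Calr, 0.16 (SE 0.08, adjusted p 0.103) for Hspa5 and -0.28 (SE 0.16, adjusted p 0.14) for Creld2. They were -0.29 (SE 0.17, adjusted p 0.153) for Sdf2l1, 0.11 (SE 0.09, adjusted p 0.345) for Xbp1 and 0.07 (SE 0.09, adjusted p 0.587) for Hsp90b1. DESeq2 in place of edgeR (44.8% of all genes), and edgeR without the Xist libraries (43.7%), called 5 genes, Calr being the added one in both.

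By time of day, the 10 genes were called in 1 or more of the 6 comparisons for Herpud1, Hspa5, Dnajb9, Creld2 and Dnajc3. Herpud1 alone was called at ZT6 (10.1% of all genes), with a log2 change of -0.77 (SE 0.25, adjusted p 0.0325). At ZT10 (16.3%) Herpud1 was lower, at -1.52 (SE 0.25, adjusted p 3.81e-06), and Hspa5 was higher, at 0.77 (SE 0.20, adjusted p 0.00387). Hspa5 at ZT10 had 564, 856 and 911 CPM in wild-type and 1063, 1359 and 1985 CPM in Bmal1-/- libraries, and the groups did not overlap. Creld2 did not overlap at ZT10 either, at 3.27, 8.38 and 10.8 and 11.2, 14.7 and 27.8 CPM, but its change of 1.01 (SE 0.39, adjusted p 0.0671) did not pass. At ZT14 (9.75%) Herpud1 changed by -1.63 (SE 0.25, adjusted p 3.32e-06) and Dnajb9 by -1.08 (SE 0.30, adjusted p 0.0126). At ZT18 (12.6%) Herpud1 changed by -0.88 (SE 0.25, adjusted p 0.0102), Dnajc3 by -0.52 (SE 0.14, adjusted p 0.00699) and Creld2 by -1.25 (SE 0.37, adjusted p 0.0171). Creld2 at ZT18 ran from 14.1 to 63.4 (median 36.95) CPM in wild-type to 5.24 to 30.5 (median 17.7) CPM in Bmal1-/- libraries, with overlap. At ZT2 (9.68%) and ZT22 (7.05%) edgeR called 0 of the 10 genes, with 2 and 3 at an unadjusted p under 0.05. DESeq2 was not run by time.

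The estimated size and for some genes the estimated sign of these differences were not the same in 2 sets of replicates. Libraries numbered 1 to 3 and 4 to 6 were compared apart, a split chosen with earlier results of these data known, and edgeR called 6 of the 10 genes in each (38.8% of all genes in replicates 1 to 3 and 33.5% in replicates 4 to 6). Herpud1 was lower in both, at -1.01 (SE 0.14, adjusted p 1.17e-06) and -0.95 (SE 0.15, adjusted p 1.03e-05). In replicates 1 to 3 Xbp1, Hspa5, Hsp90b1, Pdia4 and Calr were higher in Bmal1-/- libraries, with Hsp90b1 at 0.42 (SE 0.08, adjusted p 0.000149) and Pdia4 at 0.65 (SE 0.15, adjusted p 0.00115). In replicates 4 to 6 Hsp90b1, Creld2, Sdf2l1, Dnajb9 and Dnajc3 were lower, with Hsp90b1 at -0.33 (SE 0.12, adjusted p 0.0364) and Sdf2l1 at -0.90 (SE 0.21, adjusted p 0.00151). Hsp90b1 was thus called in opposite directions. Its mean was 563 ± 119 CPM in wild-type and 787 ± 129 CPM in Bmal1-/- libraries of replicates 1 to 3, and 622 ± 153 and 539 ± 168 CPM in replicates 4 to 6 (SD, n = 18 each). Of the 4 genes called over all replicates, Pdia4 was called in replicates 1 to 3 and had 0.26 (SE 0.19, adjusted p 0.323) in replicates 4 to 6. Dnajb9 and Dnajc3 were called in replicates 4 to 6 and had -0.32 (SE 0.16, adjusted p 0.128) and -0.11 (SE 0.06, adjusted p 0.174) in replicates 1 to 3. The difference between the 2 sets of replicates was not tested.

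**Figure D2:**
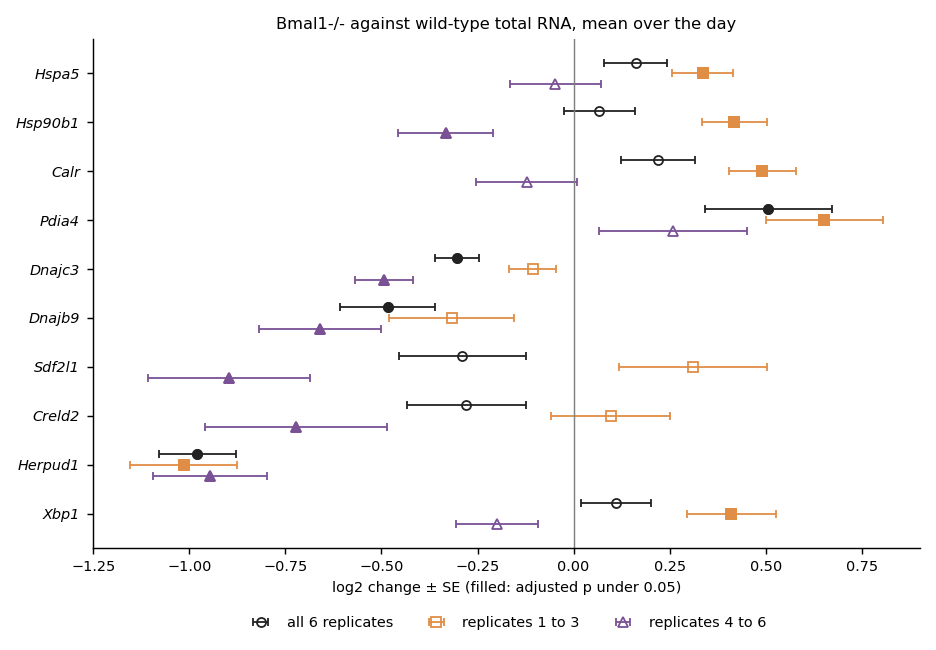
Log2 change of each of the 10 genes in Bmal1-/- against wild-type total RNA over the day (x axis), with its SE as the bar, from all 6 replicates, from replicates 1 to 3 and from replicates 4 to 6. Filled points pass an adjusted p of 0.05 in edgeR: Herpud1 lies near -1 in all 3 fits, and Hsp90b1 lies on opposite sides of 0 in the 2 sets of replicates.

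No member passed the test for a 24 h rhythm in Bmal1-/- total RNA, which by itself does not show a loss. edgeR called 0 of the 10 genes (0.00825% of all genes, or 1 gene), with 1 at an unadjusted p under 0.05 (Dnajc3, ratio 1.24), and DESeq2 called 0. The test of any difference between times called 0 as well (0.0247% of all genes), with 0 at an unadjusted p under 0.05; DESeq2 was not run for it. The rhythm itself differed between genotypes for 2 of the 10 genes (interaction of genotype and the 24 h terms, edgeR, 5.11% of all genes). The ratio was 2.62 in wild-type and 1.35 in Bmal1-/- libraries for Herpud1 (adjusted p 0.0113), and 2.15 and 1.18 for Hspa5 (adjusted p 0.042). Creld2, with 3.72 and 1.46, did not pass (adjusted p 0.162). With 3 replicates the call was lost for both genes (Herpud1 0.576 in replicates 1 to 3 and 0.0548 in 4 to 6; Hspa5 0.468 and 0.136), and Hspa5 also missed the threshold with all 4 series in 1 fit (0.414).

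Nuclear RNA was compared with wild-type total RNA, the same 36 libraries that serve the Bmal1-/- and polysomal comparisons. A difference here is one of shares of the RNA in each preparation, not of molecules per cell. Of the 10 genes, 5 differed over the day (edgeR, 83.8% of the 11864 genes tested): Dnajc3, Dnajb9 and Hspa5 were lower in nuclear RNA (42.1% of all genes) and Calr and Pdia4 higher (41.6%). The median log2 change was -0.04 over the 10 genes and -0.01 over all genes. Of the 5 hepatocyte markers 3 were lower and 1 higher in nuclear RNA, and their part was not tested.

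Dnajc3 averaged 307 ± 59.5 CPM in total and 95.4 ± 28.8 CPM in nuclear RNA (SD, n = 36 each), a log2 change of -1.75 (SE 0.08, adjusted p 1.49e-32). Dnajb9 averaged 30.7 ± 14.6 and 9.69 ± 4.53 CPM, a change of -1.72 (SE 0.12, adjusted p 1.28e-21). Both were lower at 6 of 6 times. The Dnajc3 sites did not fall alike. Its most used site in total RNA, 6434 bases before the annotated end, went from 84.6 ± 16.2 to 8.79 ± 4.37 CPM in nuclear RNA. The site at the annotated end went from 37.0 ± 9.95 to 25.1 ± 10.9 CPM. Hspa5 averaged 1239.5 ± 421 and 849 ± 322 CPM, a change of -0.60 (SE 0.09, adjusted p 3.04e-09), also lower at 6 of 6 times. Calr averaged 515 ± 106 and 887 ± 293 CPM and Pdia4 68.6 ± 27.4 and 111 ± 36 CPM, with changes of 0.75 (SE 0.09, adjusted p 1.63e-11) and 0.67 (SE 0.12, adjusted p 1.54e-06), each higher at 6 of 6 times. Xbp1 (-0.05, SE 0.09, adjusted p 0.583), Herpud1 (-0.03, SE 0.10, adjusted p 0.779) and Sdf2l1 (0.07, SE 0.14, adjusted p 0.652) were close to 0, while Creld2 (0.33, SE 0.17, adjusted p 0.0648) and Hsp90b1 (-0.15, SE 0.09, adjusted p 0.101) did not pass. Without the Xist libraries Creld2 passed (adjusted p 0.0403), and DESeq2 called 6 of the 10 genes, against 84.3% of all genes. With the replicate number as a block in edgeR, Creld2 and Hsp90b1 passed as well. The Hsp90b1 gene counts join sites that moved apart. Its end site went from 228 ± 94.8 CPM in total to 346 ± 170 CPM in nuclear RNA. A site 7479 bases before the end went from 118 ± 27.2 to 53.8 ± 24.2 CPM.

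In polysomal RNA, the RNA that sediments with several ribosomes, 10 of the 10 genes differed from total RNA (edgeR, 76.1% of the 11556 genes tested), 6 higher (38.4% of all genes) and 4 lower (37.6%). Sdf2l1 averaged 20.4 ± 10.5 CPM in total and 71.5 ± 30.6 CPM in polysomal RNA, a log2 change of 1.77 (SE 0.13, adjusted p 2.98e-19). Pdia4 averaged 68.6 ± 27.4 and 197 ± 78.98 CPM (1.49, SE 0.14, adjusted p 2.74e-15). Its gene counts join a site beside the gene start, whose share rose, with a site nearer the gene end, whose share fell. Xbp1 averaged 88.5 ± 23.9 and 231 ± 62.8 CPM (1.30, SE 0.10, adjusted p 1.25e-19). Dnajb9, low in nuclear RNA, was higher here by 1.28 (SE 0.13, adjusted p 1.56e-13), as were Herpud1 by 0.71 (SE 0.10, adjusted p 5.96e-09) and Creld2 by 0.55 (SE 0.15, adjusted p 0.00104). Each of these 6 was higher at 6 of 6 times. Hsp90b1 and Hspa5 went the other way: Hsp90b1 averaged 592 ± 138 and 216 ± 85.3 CPM (-1.52, SE 0.12, adjusted p 3.28e-19) and Hspa5 1239.5 ± 421 and 569 ± 345 CPM (-1.18, SE 0.14, adjusted p 8.61e-12). Dnajc3 was lower by a change of -0.97 (SE 0.07, adjusted p 4.87e-20), and all 3 were lower at 6 of 6 times. The sites of Dnajc3 did not all go down. The site at its annotated gene end averaged 37.0 ± 9.95 CPM in total and 51.2 ± 17.8 CPM in polysomal RNA. Calr changed by -0.20 (SE 0.08, adjusted p 0.0196) and was lower at 5 of 6 times. In the same comparison 3 of 5 hepatocyte markers were lower, 1 of 6 pancreatic acinar markers higher and 2 of 2 tested lung markers higher, and the part of these cells was not tested.

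The estimated polysomal changes were not of the same size in replicates 1 to 3 and 4 to 6, a difference that was not tested. Hspa5 was at -0.75 (SE 0.17, adjusted p 0.000205) in replicates 1 to 3 and -1.82 (SE 0.13, adjusted p 2.42e-14) in replicates 4 to 6, and Sdf2l1 at 2.41 (SE 0.16, adjusted p 1.8e-14) and 1.11 (SE 0.13, adjusted p 1.26e-09). Calr was at 0.00 (SE 0.10, adjusted p 0.974) and -0.50 (SE 0.09, adjusted p 5.72e-06), so its call rested on replicates 4 to 6. The highest Hspa5 levels in polysomal RNA were in libraries that stood apart: 1579 CPM in the ZT2 library with Ctrb1, against at most 863 CPM in the other 5, and 1570 CPM in the ZT22 library with Xist. Without the Ctrb1 libraries the Hspa5 change was -1.21 (SE 0.14, adjusted p 3.11e-12), and without the Xist libraries -1.24 (SE 0.13, adjusted p 2.74e-13). Without polysomal replicate 1, which held the lung markers, it was -1.25 (SE 0.14, adjusted p 2.58e-12).

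**Figure D3:**
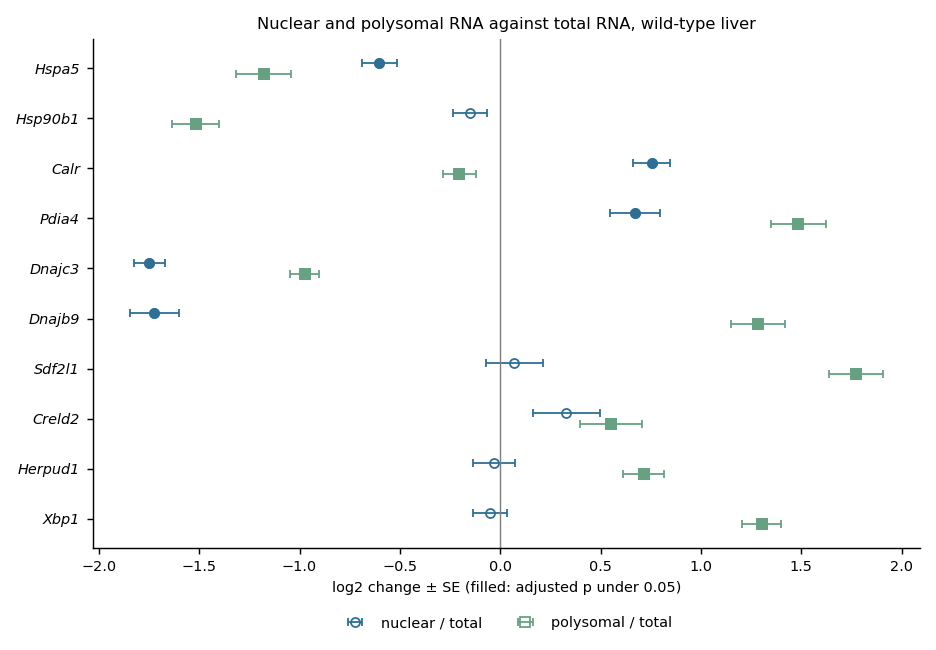
Log2 change of each of the 10 genes against wild-type total RNA over the day (x axis) in nuclear and in polysomal RNA, with its SE as the bar. Filled points pass an adjusted p of 0.05 in edgeR: Pdia4 is to the right of 0 and Hspa5 and Dnajc3 to the left in both fractions, and Dnajb9 is on opposite sides.

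A 24 h rhythm was also called in the fractions for part of the genes. Nuclear and total RNA may come from the same livers, so the nuclear calls are not a repeat in other animals. Of 36 nuclear libraries, 31 correlated best with the total RNA library of their own number. In nuclear RNA 6 of the 10 genes passed (edgeR, 5.99% of all genes). Creld2 had a ratio of 3.88 with the peak at ZT18.5 (adjusted p 0.000918), Herpud1 of 2.34 with the peak at ZT13.4 (adjusted p 0.000527) and Hspa5 of 2.12 with the peak at ZT19.1 (adjusted p 0.00227). Sdf2l1 had 2.20 with the peak at ZT23.2 (adjusted p 0.0127), Hsp90b1 1.82 with the peak at ZT18.0 (adjusted p 0.0145) and Dnajc3 1.59 with the peak at ZT20.2 (adjusted p 0.0269). Hspa5 at ZT10 was at 439, 586 and 668 CPM and at ZT18 at 443, 1178 and 1573 CPM in nuclear RNA. In polysomal RNA 3 of the 10 genes passed (edgeR, 7.9%): Creld2 with 2.98 with the peak at ZT20.1 (adjusted p 0.00239), Herpud1 with 2.22 with the peak at ZT12.9 (adjusted p 0.000932) and Sdf2l1 with 1.84 with the peak at ZT0.8 (adjusted p 0.0294). Hspa5 had a polysomal ratio of 1.67 with the peak at ZT21.3 (adjusted p 0.432) and did not pass. Without polysomal replicate 1 Sdf2l1 missed the threshold (adjusted p 0.108). The test of any difference between times called Hspa5, Herpud1, Creld2 and Dnajb9 in nuclear RNA (3.75% of all genes) and Herpud1 and Creld2 in polysomal RNA (3.24%).

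In nuclear replicates 1 to 3 alone edgeR called 0 of the 10 genes as rhythmic (1.6% of all genes), with 2 at an unadjusted p under 0.05. A call in one fraction and none in another does not show a difference. The rhythm differed from that of total RNA for 0 of the 10 genes in nuclear and 0 in polysomal RNA (edgeR, 0.0% of all genes in each, 0 members at an unadjusted p under 0.05, and 0 by DESeq2).

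**Figure D4:**
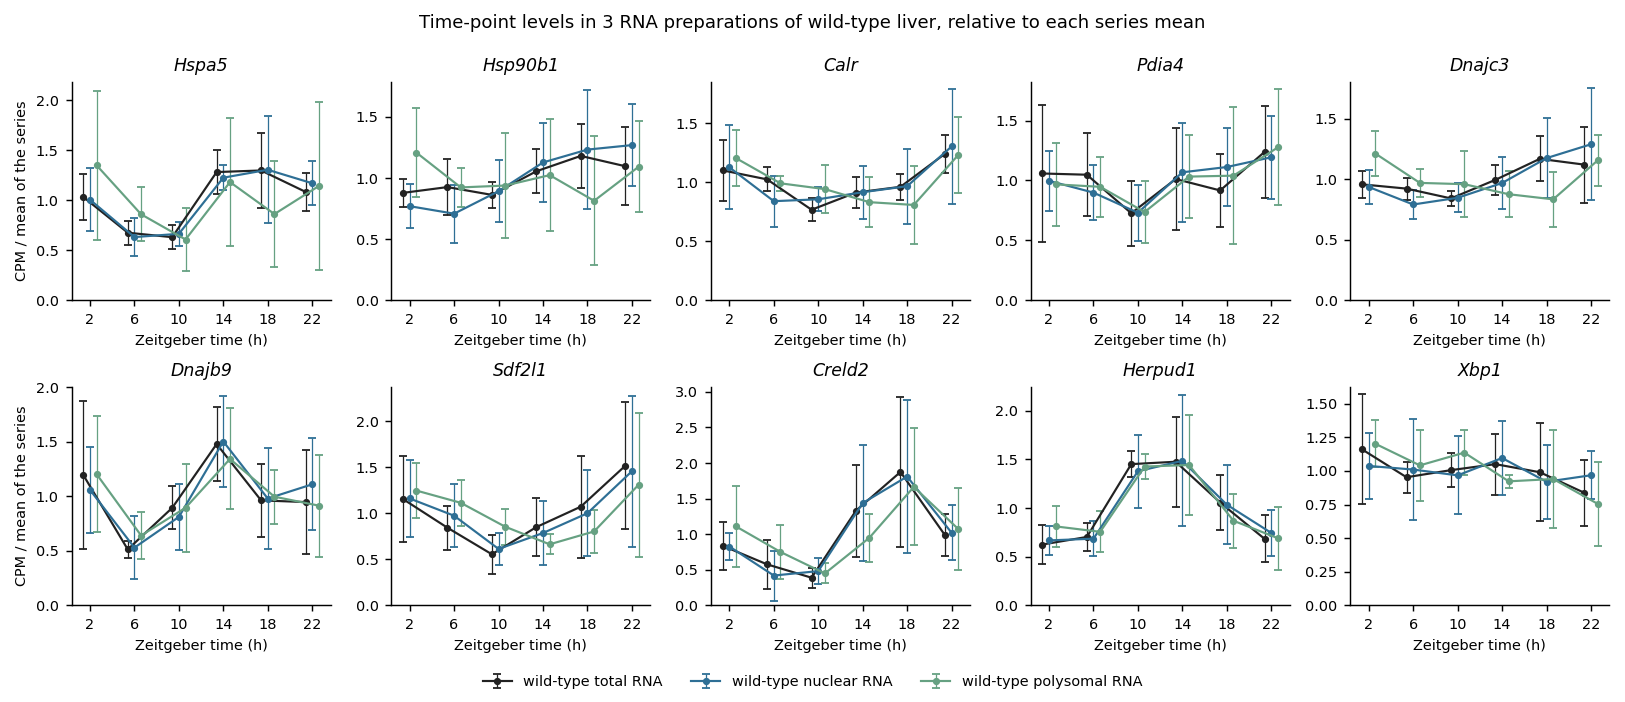
Levels of the 10 genes relative to the mean of their own series (y axis, ratio) against zeitgeber time in h (x axis) for wild-type total, nuclear and polysomal RNA, as the mean and SD of 6 libraries. In the 3 kinds of RNA the mean is highest at ZT18 for Creld2 and at ZT14 for Herpud1, while for Hspa5 it is highest at ZT18 in total and nuclear RNA and at ZT2, the time of a library with Ctrb1, in polysomal RNA.

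QuantSeq tags are read here as marks of where transcripts end. Whether tags far from an annotated end came from a poly(A) tail or from A-rich stretches inside the transcript was not tested. Sites of the authors' filtered list were given to genes by RefSeq (GRCm38.p6), and the usage of a site is its percentage of all site counts of the gene. Herpud1 had 1 site, and Xbp1 had 95.7% of its counts at 1 site. In Bmal1-/- total RNA 2 of 25 tested sites of 8 members differed (edgeR, 8.58% of all sites), both in Dnajc3. Its site chr14:118978040-118978229 went from 15.5% ± 2.57 to 18.9% ± 3.13 (SD, n = 36; log2 change 0.29, SE 0.06, adjusted p 0.000331). Its site at the annotated gene end, chr14:118981590-118981704, went from 18.9% ± 2.67 to 16.7% ± 2.38 (-0.18, SE 0.05, adjusted p 0.00834). These are shifts of a few percent of the gene's tags. The first was called in replicates 1 to 3 and in 4 to 6 alone, and the second in neither (log2 change -0.18, SE 0.07, adjusted p 0.173 and -0.18, SE 0.07, adjusted p 0.0741). In replicates 1 to 3 a site of Hspa5, chr2:34774031-34774242, was called in its place (0.19, SE 0.06, adjusted p 0.0498).

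In nuclear RNA 20 of 22 sites of 7 members differed from total RNA (78.8% of all sites), and in polysomal RNA 22 of 25 sites of 8 members (70.4%). Dnajc3, whose gene counts were low in both fractions, had its most used site in total RNA at chr14:118975132-118975268, 6434 bases before the annotated end. This site held 43.7% ± 3.87 of the tags in total, 10.8% ± 4.47 in nuclear and 9.48% ± 5.72 in polysomal RNA (log2 changes -2.06, SE 0.09, adjusted p 4.61e-31 and -2.23, SE 0.14, adjusted p 3.03e-22). The end site held 30.1% ± 7.52 in nuclear and 38.02% ± 7.21 in polysomal RNA. From total to polysomal RNA the most used site went from 84.6 ± 16.2 to 12.1 ± 7.28 CPM. The end site went from 37.0 ± 9.95 to 51.2 ± 17.8 CPM, and was at 25.1 ± 10.9 CPM in nuclear RNA. The Dnajc3 sites starting at 118978040 and 118979794 went from 30.4 ± 9.12 to 28.2 ± 12.0 and from 25.2 ± 5.80 to 23.2 ± 7.52 CPM in polysomal RNA. Hspa5 had a site 2287 bases before its end, chr2:34774031-34774242, with 13.4% ± 2.80 of the tags in total, 40.97% ± 9.10 in nuclear and 34.4% ± 10.5 in polysomal RNA (log2 changes 1.61, SE 0.08, adjusted p 6.45e-28 and 1.34, SE 0.09, adjusted p 3.75e-20). Its end site, chr2:34776164-34776480, held 78.2% ± 4.68, 55.6% ± 10.01 and 63.2% ± 10.9 in the same order, the lowest share in nuclear RNA.

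Pdia4, whose gene counts were higher in both fractions, was counted mostly away from its annotated end. A site 180 bases from the gene start, chr6:47813216-47813332, held 47.97% ± 12.4 of its tags in total, 24.9% ± 8.86 in nuclear and 69.1% ± 7.74 in polysomal RNA. The site chr6:47798368-47798465, 2227 bases before the end, held 37.4% ± 9.97, 59.97% ± 9.91 and 7.997% ± 4.42. The log2 changes of the first were -0.97, SE 0.11, adjusted p 3.8e-12 in nuclear and 0.51, SE 0.08, adjusted p 2.12e-08 in polysomal RNA, and those of the second 0.70, SE 0.07, adjusted p 1.25e-13 and -2.21, SE 0.15, adjusted p 1.04e-20. The Pdia4 gene counts thus join tags of 2 sites that moved in opposite directions in each fraction. Calr had 47.2% ± 11.4, 75.7% ± 11.5 and 59.7% ± 14.4 at its annotated end (chr8:84842087-84842245). Hsp90b1 had 45.9% ± 11.02, 64.1% ± 14.5 and 56.7% ± 14.8 at its end (chr10:86690813-86691046) and 25.3% ± 6.49, 11.03% ± 4.83 and 11.5% ± 6.67 at a site 7479 bases before it (chr10:86698320-86698440). In Calr and Hsp90b1 the end site thus had its largest share in nuclear RNA.

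**Figure D5:**
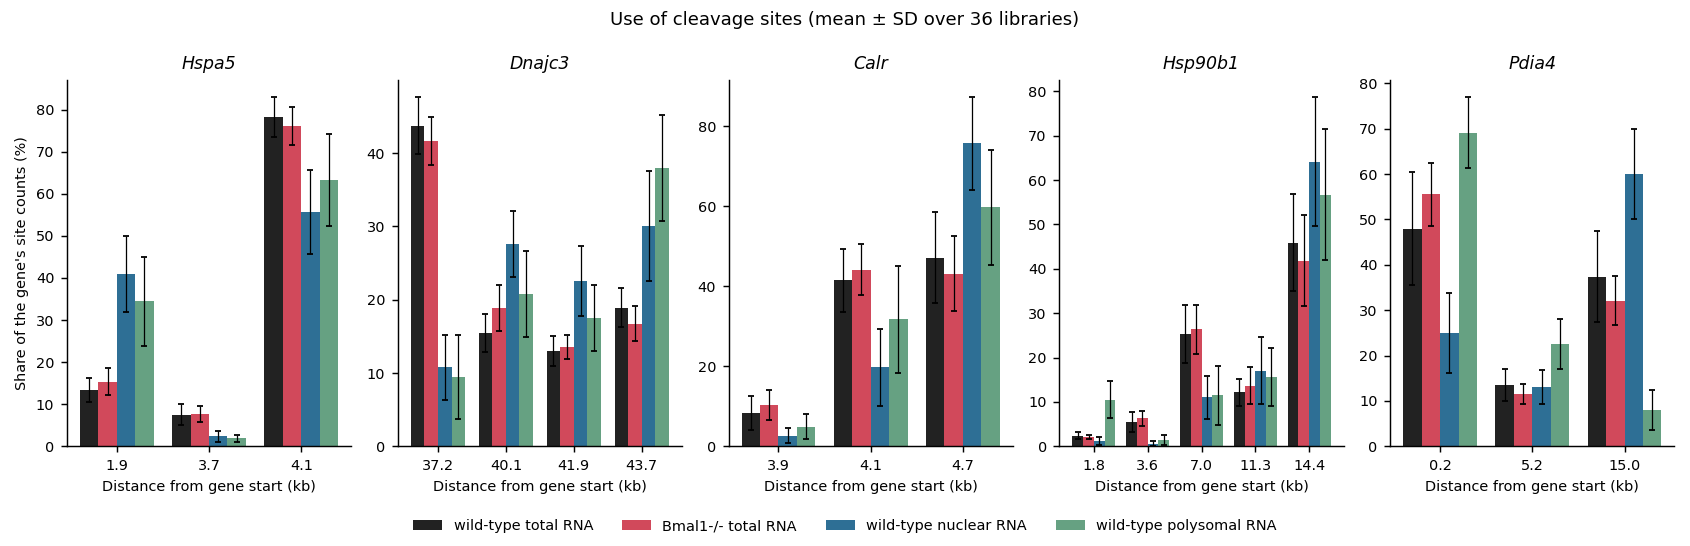
Share of a gene's site counts (y axis, percent, mean and SD of 36 libraries) at each site of Hspa5, Dnajc3, Calr, Hsp90b1 and Pdia4. Sites are placed in order of distance from the gene start in kb (x axis). Bars are wild-type total, Bmal1-/- total, wild-type nuclear and wild-type polysomal RNA. Sites with 5% or more in any series are shown: Dnajc3 loses its first site in both fractions, and Pdia4 has its largest polysomal share beside the gene start.

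The rest of the pathway was read from 5 lists of genes that are no members, also chosen with earlier results of these data known. In Bmal1-/- total RNA over the day, where 44.2% of all genes differed, 2 of 8 sensors and factors did: Creb3l3, a liver factor of the ATF6 kind (log2 change -0.50, SE 0.07), and Mbtps1, the protease that cleaves ATF6 (0.20, SE 0.04). Of 16 other chaperones and folding enzymes 6 differed, 2 higher and 4 lower, with the largest changes in Txndc5, a disulfide isomerase (-0.74, SE 0.11), and Dnajb11 (-0.20, SE 0.08). Of 12 tested degradation genes 6 differed, 2 higher and 4 lower, led by Selenos (0.45, SE 0.05) and Derl2 (-0.32, SE 0.05), both of the retrotranslocation complex. Of 14 translocon and signal peptide genes 4 differed, 3 higher and 1 lower, led by Spcs2 (0.31, SE 0.07), a signal peptidase subunit, and Ssr1 (0.25, SE 0.05). In the PERK arm 2 of 7 differed: Asns, asparagine synthetase (-3.81, SE 0.30), and Trib3, a pseudokinase (-1.60, SE 0.25), both lower. The shares of 4 of the 5 lists were below that of all genes and 1, of the degradation genes, was above it (50%), and the median changes lay between -0.14 and 0.02.

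For the 24 h rhythm in wild-type total RNA (18.9% of all genes) the shares were 1 of 8 sensors (Atf6b, ratio 1.62, peak at ZT21.3), 6 of 16 chaperones, 3 of 13 degradation genes, 3 of 14 translocon genes and 5 of 7 PERK arm genes. Among chaperones Manf (ratio 2.47, peak at ZT19.8) and Hyou1 (1.96, peak at ZT19.2) had the widest ratios. Edem1 (1.39, peak at ZT21.7) and Sel1l (1.38, peak at ZT20.3) led the degradation list, and Spcs2 (1.68, peak at ZT21.8) and Srprb (1.59, peak at ZT19.6) the translocon list. These named genes peaked between ZT19.2 and ZT21.8. Trib3 (6.19, peak at ZT7.3) and Chac1 (4.30, peak at ZT7.8), targets of ATF4, peaked in the light. In Bmal1-/- total RNA edgeR called 0 genes of these 5 lists (0.00825% of all genes), with 2 at an unadjusted p under 0.05 (1 translocon and 1 PERK arm gene), and DESeq2 called 0 of all genes. The rhythm differed between genotypes for 3 of the 7 PERK arm genes (5.11% of all genes), Atf4, Chac1 and Trib3, by edgeR and by DESeq2. It did so for 0 genes of the other 4 lists (edgeR, 8 at an unadjusted p under 0.05, and 0 by DESeq2).

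In nuclear RNA 8 of 8 sensors (6 higher), 13 of 16 chaperones (8 higher), 10 of 13 degradation genes (6 higher), 12 of 14 translocon genes (4 higher) and 5 of 6 PERK arm genes (3 higher) differed from total RNA. The 2 widest of each list were Creb3l3 (1.22, SE 0.07), Eif2ak3 (0.61, SE 0.14), Fkbp2 (1.41, SE 0.14), Dnajb11 (-1.15, SE 0.08), Herpud2 (-1.43, SE 0.09), Os9 (1.42, SE 0.07), Sec61b (-1.80, SE 0.11), Spcs1 (-1.70, SE 0.07) and Asns (-1.78, SE 0.26) with Ppp1r15a (0.77, SE 0.10). In polysomal RNA the counts were 6 of 8 (5 higher), 10 of 16 (5 higher), 11 of 13 (9 higher), 14 of 14 (10 higher) and 6 of 7 (4 higher). The 2 widest of each list were Atf6 (-0.84, SE 0.08), Atf6b (0.61, SE 0.11), Manf (1.39, SE 0.12), Ppib (1.39, SE 0.08), Derl1 (1.38, SE 0.07), Derl3 (1.22, SE 0.36), Ssr2 (1.78, SE 0.07), Sec63 (-1.57, SE 0.09) and Ddit3 (-2.14, SE 0.17) with Trib3 (1.42, SE 0.18). With backgrounds of 83.8% and 76.1%, most shares in both fractions were near those of all genes.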

How the data were processed

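The authors deposited whole-number counts per gene symbol and per polyadenylation site for mouse liver libraries in 4 series of 36, with replicates kept apart. Per the labels' protocols, TRIzol extraction was followed by DNase I, acid phenol-chloroform and QuantSeq library preparation. Nuclei came from frozen, homogenised tissue spun on a sucrose cushion, and polysomal RNA from sucrose gradient fractions after lysis with cycloheximide. The submitters' processing notes name STAR 2.4.2a, HOMER, edgeR, mm10 and GRCm38.p5, without their roles; the counting step and its strand setting are not given in the sources used here, so overlapping and antisense genes may share counts. The authors' normalized tables were not used. Site positions are other values in the authors' filtered site list; the list gives 0-based starts, printed here counted from 1.

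Groups and replicate numbers came from sample titles, and 0 columns were left without a sample. The 360 pairs of libraries within groups held 0 identical pairs. The gene members, lists and the split of replicates were chosen with earlier results of these data known. Counts were tested in R 4.3.3 with edgeR 4.0.16 (robust quasi-likelihood F test, TMM scaling), over genes averaging 10 or more counts in the libraries tested, with Benjamini-Hochberg adjustment over all of them and a threshold of 0.05. Levels over the day compare the means of 6 time-point means. Rhythm was a cosine and sine of 24 h within a series, and differences of rhythm the interaction with series. Sites were tested with the log of the gene's site total plus 0.5 as offset, for sites with at least 5% of their gene in genes averaging 50 or more counts that have 2 or more such sites. A site had to lie in 1 gene on its strand or up to 1000 bases past its end, which gave 21237 of 29199 sites to 7140 genes. The tests were checked on simulated data. All 10 members are named in each comparison; of each list, the 2 genes with the largest change or ratio among those called are named. Alternatives were median-ratio scaling, no mean-count filter, DESeq2 1.42.0, all 4 series in 1 fit, the replicate number as a block, replicates 1 to 3 or 4 to 6 alone and left-out libraries. Those without the Ctrb1 libraries were added after seeing the data. So were those without the Xist libraries, other than for the level over the day and the 24 h rhythm in Bmal1-/- total RNA.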

Additional observations from a re-analysis of the deposited data

Results flagged for a closer look

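In 24 of the 240 groups of 6 libraries, 1 library lay far from the other 5 for a member gene (its gap to the nearest, over the range, was past Dixon's 95% critical value for 6 samples). For independent values with a normal spread, chance alone marks about 1 in 20 such groups. The CPM values were not transformed and the groups share libraries between genes, so this rate need not hold here. All values are the level of the distant library, which was high unless given as low. Hspa5 had 1788 CPM in wild-type total RNA at ZT22 (replicate 5), 1579 CPM in polysomal RNA at ZT2 (replicate 3), 707 CPM in polysomal RNA at ZT10 (replicate 2), 1570 CPM in polysomal RNA at ZT22 (replicate 1) and 2902 CPM in Bmal1-/- total RNA at ZT2 (replicate 4). Of these, the wild-type and polysomal ZT22 libraries are the ones with Xist, and the polysomal ZT2 library is one of the 2 with Ctrb1. Creld2 had 24.9 CPM in wild-type total RNA at ZT6 (replicate 5), 28.2 CPM in nuclear RNA at ZT6 (replicate 5), 76.2 CPM in nuclear RNA at ZT14 (replicate 5), 62.4 CPM in polysomal RNA at ZT2 (replicate 6), 43.0 CPM in polysomal RNA at ZT6 (replicate 3), 63.1 CPM in polysomal RNA at ZT22 (replicate 2) and 27.8 CPM in Bmal1-/- total RNA at ZT10 (replicate 2). Dnajb9 had 79.0 CPM in wild-type total RNA at ZT2 (replicate 6), 56.9 CPM in wild-type total RNA at ZT22 (replicate 1) and 17.7 CPM in nuclear RNA at ZT2 (replicate 6). Xbp1 had 129 CPM in polysomal RNA at ZT6 (replicate 2, low), 189 CPM in polysomal RNA at ZT10 (replicate 5, low) and 167 CPM in Bmal1-/- total RNA at ZT22 (replicate 2). Pdia4 had 101 CPM in wild-type total RNA at ZT18 (replicate 1) and 210 CPM in nuclear RNA at ZT14 (replicate 4), and Dnajc3 had 359 CPM in wild-type total RNA at ZT2 (replicate 4) and 196 CPM in polysomal RNA at ZT6 (replicate 3). Sdf2l1 had 31.9 CPM in Bmal1-/- total RNA at ZT10 (replicate 2) and Herpud1 178 CPM in Bmal1-/- total RNA at ZT10 (replicate 2). Replicate 2 at ZT10 of the Bmal1-/- libraries was thus far above the others for Herpud1, Creld2 and Sdf2l1.

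In total RNA the 24 h rhythm of Bmal1-/- libraries differed from that of wild-type libraries for Herpud1 (edgeR interaction, adjusted p 0.0113) and Hspa5 (adjusted p 0.042), with the ratios given in the report.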

How the results depend on the processing

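Most results kept direction and side of the threshold: of the single-gene values of members under alternatives, 1589 kept both, 30 passed only under the alternative, 62 only in the tests reported, and 39 turned sign. The cause of the turns was not tested. Over the day in Bmal1-/- RNA, the log2 changes that turned in replicates 1 to 3 were Creld2 0.0965, Sdf2l1 0.31 and Dnajb11 0.00513, and in replicates 4 to 6 Xbp1 -0.20, Hspa5 -0.0474, Hsp90b1 -0.33 and Calr -0.12. By time they were, in replicates 1 to 3, at ZT2 Xbp1 0.56; at ZT6 Creld2 0.21; at ZT10 Dnajc3 0.22; at ZT14 Sdf2l1 0.47; at ZT18 Hspa5 0.26, Sdf2l1 0.30, Hsp90b1 0.22; at ZT22 Sdf2l1 0.24, Dnajc3 0.0456. In replicates 4 to 6 they were at ZT6 Xbp1 0.0658, Hsp90b1 -0.41, Pdia4 -0.0912, Calr -0.28; at ZT10 Xbp1 -0.0106, Sdf2l1 -0.83, Dnajb9 0.12, Hsp90b1 -0.28, Calr -0.0244; at ZT14 Hsp90b1 -0.15; at ZT18 Xbp1 -0.48, Pdia4 -0.18, Calr -0.45; at ZT22 Hspa5 -0.0835, Hsp90b1 -0.39, Calr -0.30. Nuclear changes turned for Xbp1 0.14 in replicates 1 to 3, Herpud1 0.0207 and Sdf2l1 -0.0235 in replicates 4 to 6, Herpud1 0.00359 with all 4 series in 1 fit and Sdf2l1 -0.0324 with genes of at least 1 count. Polysomal changes turned for Calr 0.00437 in replicates 1 to 3 and Derl3 -0.30, a degradation gene, in replicates 4 to 6. Site usage turned in replicates 1 to 3 for Hsp90b1 site starting at 86690813 0.0132, Hsp90b1 site starting at 86698320 -0.11, Hsp90b1 site starting at 86701699 -0.0328, Dnajb9 site starting at 44205638 -0.0884 and Dnajb9 site starting at 44206102 0.48 in Bmal1-/- and Pdia4 site starting at 47808260 0.0891 in nuclear RNA. In replicates 4 to 6 it turned for Dnajb9 site starting at 44205935 -0.0751 and Hspa5 site starting at 34775746 -0.0766 in Bmal1-/- and Dnajb9 site starting at 44205638 0.038, Dnajb9 site starting at 44206102 -0.0439 and Calr site starting at 84842946 0.24 in polysomal RNA.

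Counts of the 10 genes moved as follows. By time in Bmal1-/- RNA, replicates 1 to 3 gave 5 at ZT10 (2 with all 6), 1 at ZT14 (2) and 1 at ZT18 (3), and replicates 4 to 6 gave 2 at ZT2 (0), 0 at ZT6 (1; 0 also with genes of at least 1 count), 1 at ZT10, 1 at ZT14 and 5 at ZT18. The 24 h rhythm gave 3 in wild-type total (7), 0 in nuclear (6) and 1 in polysomal RNA (3) in replicates 1 to 3. Any difference between times gave 2 in both sets in wild-type total RNA (6), 0 and 1 in nuclear RNA (4) and 0 in polysomal replicates 1 to 3 (2). Shares of all genes in the same order were 5.56% and 1.85% (11.8%), 0.655% and 1.39% (3.75%) and 0.33% (3.24%). The rhythm difference in Bmal1-/- RNA gave 0 in both sets (2) and 1 with genes of at least 1 count or all 4 series in 1 fit. Of all genes 1.96% and 1.66% were called in the 2 sets (5.11%), and 2.26% and 1.6% in the other 2 settings. Member sites called were 4 in Bmal1-/- replicates 4 to 6 (2) and 14 in polysomal replicates 4 to 6 (22). Over all sites 1299 of 10988 (939 of 10941) and 5477 of 10240 (7202 of 10225) were called, in the same order. The counts of 0 are edgeR's (DESeq2 was not run for them); at an unadjusted p under 0.05 there were 1 at ZT6 in replicates 4 to 6 and 3 with genes of at least 1 count, 2 for the nuclear rhythm, 1 and 3 for any nuclear and polysomal difference between times in replicates 1 to 3, and 0 and 3 for the rhythm difference in replicates 1 to 3 and 4 to 6.

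Over all genes, the calls by time in Bmal1-/- RNA fell to 491 at ZT2 (1169) and 682 at ZT18 (1527) in replicates 1 to 3, and to 428 at ZT6 (1216), 931 at ZT10 (1974), 152 at ZT14 (1178) and 293 at ZT22 (852) in replicates 4 to 6. The 24 h rhythm called from 622 to 3039 genes in wild-type total (2260), 174 to 996 in nuclear (669), 115 to 2679 in polysomal (845) and 0 to 21 in Bmal1-/- RNA (1). Any difference between times called 216 to 2135 in wild-type total (1411), 71 to 779 in nuclear (419), 34 to 829 in polysomal (346) and 0 to 5 in Bmal1-/- RNA (3), and the 12 h term 0 to 12 in wild-type total RNA (6), up to 8 in nuclear (0) and up to 3 in polysomal RNA (0). The rhythm difference called 189 to 752 in Bmal1-/- (617), 0 to 5 in nuclear (0) and 0 to 424 in polysomal RNA (0).

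The labels give the series the same replicate numbers and do not say what they share. As not every pair correlated over 0.1, the numbers were not taken as pairs in the tests reported. For nuclear RNA these tests may leave a pairing unused. The Xist libraries of wild-type total and nuclear RNA at ZT22 both carry the number 5, and those of polysomal and Bmal1-/- RNA the numbers 1 and 6. Deviations of same-numbered libraries had a mean correlation of 0.056 for Bmal1-/- with wild-type total RNA (11 of 36 pairs over 0.1), 0.267 for nuclear (34 of 36; 31 correlated best with their own number, a hint from the data and not the design) and -0.095 for polysomal RNA (0 of 36). With the number as a replicate block in edgeR, the polysomal 24 h rhythm called 5 members (3), against 14.1% of all genes. The nuclear level called 7 (5), against 85.5%, as Creld2 (adjusted p 0.000515) and Hsp90b1 (0.0284) were added. The rhythm difference in Bmal1-/- RNA called 1 (2), against 4.89%, as Hspa5 missed the threshold (adjusted p 0.0634). Member sites called in Bmal1-/- RNA were 5 (2), against 1324 of 10941 over all sites (939). Calr at ZT18 (-0.0588) and Hspa5 at ZT22 (-0.00309) turned sign. The lowest count of a member in 1 library was 5, for Dnajb9 in nuclear RNA at ZT6. The Hspa5 rhythm difference lay at the threshold with genes of at least 1 count (adjusted p 0.050044).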

Other observations

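Apart from the members, 43 genes had an ERSE or ERSE-II in the promoter window. Of these, 18 had enough counts for the 24 h test in wild-type total RNA, and 6 passed (33.3%, against 18.9% of all genes, edgeR): Dnajb11 and Pdia6, folding enzymes of the reticulum, Acacb and Acnat2, enzymes of lipid metabolism, Lgalsl and Rcl1. Over the day in Bmal1-/- total RNA, 8 of 17 differed (47.1%, against 44.2%), among them Canx, a lectin chaperone, and Dnajb11. In nuclear RNA 16 of 18 differed (88.9%, against 83.8%) and in polysomal RNA 12 of 17 (70.6%, against 76.1%). These shares are given as counts only, and no test of the set was made.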
